A study of Mus musculus with 18 samples.

Results

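Glutathione synthesis and cystine uptake are described here through 6 genes, *Gclc*, *Gclm*, *Gss*, *Gsr*, *Slc7a11* and *Ggt1*, of 18193 genes named on the array. The genes were chosen by symbol, and each was read from the probe set annotated to it alone that had the highest mean over all arrays. Of the 6 genes, 5 were measured, each by 2 probe sets, and no probe set was annotated to *Ggt1* alone. RNA came from the right lobe of the lung of female B6C3F1 mice, an F1 hybrid common in rodent bioassays. Each of 6 groups had 3 mice and each mouse its own array, 18 in all. Dosing lasted 13 weeks and ended at an age of 18 weeks. The first group ate 1,5-naphthalenediamine (NDA) at 2000 ppm in feed, and another ate N-(1-naphthyl)ethylenediamine dihydrochloride (NEDD) at 2000 ppm. A further group ate pentachloronitrobenzene (PCNB) at 8187 ppm, and the control of these 3 groups ate rodent chow alone. Dosing in feed was on 7 days a week. The remaining treated mice received 2,3-benzofuran at 240 mg/kg by gavage in corn oil on 5 days a week, and their controls received the corn oil alone at 5 ml/kg. The labels class NDA and benzofuran as lung carcinogens in long bioassays and NEDD and PCNB as negative there. The question was which of these treatments moved the genes that make, supply and restore glutathione.

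Glutathione is a tripeptide of glutamate, cysteine and glycine that cells use to reduce peroxides and to conjugate reactive chemicals. *Gclc* and *Gclm* encode the catalytic and modifier subunits of glutamate-cysteine ligase, the rate-limiting enzyme of its synthesis, and *Gss* encodes the synthetase that adds glycine. *Slc7a11* encodes xCT, the cystine-glutamate exchanger that brings in the precursor of cysteine, *Gsr* encodes the reductase that restores oxidised glutathione, and *Ggt1* encodes a surface enzyme that starts the breakdown of extracellular glutathione. Several of these genes are known targets of the transcription factor NRF2, and *Slc7a11* is also a target of ATF4, the factor of the amino acid response.

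The genes lie on different chromosomes, apart from *Gclm* and *Slc7a11*. In RefSeq on build GRCm38.p6 they are *Gclc* at chr9:77754535-77794489, *Gclm* at chr3:122245487-122267215, *Gss* at chr2:155563181-155592810, *Gsr* at chr8:33653238-33698162 and *Slc7a11* at chr3:50364936-50499087. *Ggt1* lies at chr10:75561076-75586193. Promoter windows, from 250 bases before to 50 after a transcript start, matched *Gclm*, *Gss*, *Slc7a11* and *Ggt1* in the RefSeq table of that build, and the members not matched are *Gclc* and *Gsr*. The windows of *Gclm* (chr3:122245307-122245606, plus strand) and *Slc7a11* (chr3:50443564-50443863, minus strand) are shown because both genes rose with NDA while their windows held different motifs. Capitals mark matches to the antioxidant response element TGACNNNGC, to which NRF2 binds, or to the CEBP-ATF element TGATGNAA, which ATF4 dimers bind, each searched on both strands.
Gclm: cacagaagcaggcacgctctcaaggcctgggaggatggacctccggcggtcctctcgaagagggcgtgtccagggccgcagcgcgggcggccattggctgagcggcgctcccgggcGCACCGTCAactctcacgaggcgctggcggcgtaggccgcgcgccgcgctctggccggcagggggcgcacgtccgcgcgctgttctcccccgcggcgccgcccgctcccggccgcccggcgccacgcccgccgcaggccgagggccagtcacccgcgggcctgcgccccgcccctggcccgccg
Slc7a11: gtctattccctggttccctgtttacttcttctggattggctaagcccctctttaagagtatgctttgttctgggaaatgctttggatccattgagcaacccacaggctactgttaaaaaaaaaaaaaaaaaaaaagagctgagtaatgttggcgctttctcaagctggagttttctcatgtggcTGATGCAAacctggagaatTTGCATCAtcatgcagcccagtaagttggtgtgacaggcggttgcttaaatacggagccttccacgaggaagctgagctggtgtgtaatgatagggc
The *Gclm* window held 1 antioxidant match, GCACCGTCA on the reverse strand at positions -134 to -126 from the start, and no CEBP-ATF match. In the *Slc7a11* window there were 2 CEBP-ATF matches, TGATGCAA at -66 to -59 and its reverse complement TTGCATCA at -47 to -40, and no antioxidant match. The *Gss* window (chr2:155592761-155593060, minus strand) held neither. Of the 4 *Ggt1* windows, 3 held 1 antioxidant match each and 0 a CEBP-ATF match. No matches overlapped each other. Among 32851 such windows of 27025 mouse genes, 12.4% held the antioxidant motif, 3.97% the CEBP-ATF motif and 0.070% at least 2 CEBP-ATF matches. A match of letters is a description and not a binding site.

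The arrays carried lung markers throughout. *Sftpc*, which defines alveolar type 2 cells, was at 14.51 or above on the log2 signal scale on all 18 arrays, and *Alb*, which marks liver, stayed between 4.58 and 5.38. The array of benzofuran animal 10 stood apart, at 87.3 on the first principal component against -16.8 to 4.14 for the others. The benzofuran differences of *Gss*, *Gsr*, *Gclc* and *Slc7a11* are given with and without it. Other benzofuran values include it unless stated. Signal of the actin 3' probe set minus that of the 5' probe set, a measure of RNA integrity, was 0.33 to 0.43 (log2) on the NDA arrays, against 0.58 to 0.73 on the feed control arrays. It was 0.35 to 0.91 on the benzofuran arrays, highest on that of animal 10, against 0.42 to 0.64 on the corn oil control arrays. The labels give animal 10 an RNA integrity number of 8.9, beside 9.2 and 9.4 for benzofuran animals 6 and 8. They give 8.8 and 9.2 for NDA animals 2 and 4, against 8.3 to 8.9 in feed control. No number is given for NDA animal 5, NEDD animal 12 or corn oil control animal 22. Values below are log2 signals as deposited, ± after a log2 difference is its standard error in limma, and a gene is called when its adjusted p is under 0.05. With 3 arrays a group, an exact permutation test of a single gene cannot go below p = 0.1, so only the limma model across all genes gives calls.

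With NDA, each of the 5 measured genes of the 6 was higher than in feed control. *Gclc*, *Gclm*, *Gss* and *Gsr* were all called higher with NDA than in feed control, by 1.89-fold to 2.77-fold, whereas 1.12% of the 13434 tested genes were called higher. Levels of these 4 genes were between 7.72 and 12.19 on every array, above the filter on low signals in all groups. *Slc7a11*, the low member, also rose where it could be tested. In bulk lung, more cells of a type that expresses a gene and more RNA of it per cell cannot be told apart.

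Both ligase subunits rose with NDA. *Gclc*, the catalytic subunit, read 11.92, 12.19 and 12.05 on the NDA arrays, against 10.79, 10.76 and 10.33 on the feed control arrays. *Gclm*, the modifier subunit, read 10.35, 10.48 and 10.42 with NDA, against 9.06, 8.98 and 8.79 in feed control. No array of 1 group entered the range of the other for either gene. The limma differences were 2.68-fold for *Gclc* (95% interval of the log2 difference 1.07 to 1.78, adjusted p = 5.21e-05) and 2.77-fold for *Gclm* (interval 1.25 to 1.69, adjusted p = 7.88e-08). The other probe sets of the genes gave log2 differences of 1.37 ± 0.11 for *Gclc* and 1.10 ± 0.12 for *Gclm*, both called over 23980 probe sets, of which 0.984% were called. The *Gclm* change thus read 1.10 or 1.47 depending on the probe set.

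*Gss*, the second enzyme of the synthesis, read 8.79, 8.95 and 8.72 with NDA, against 7.97, 7.89 and 7.84 in feed control. *Gsr*, the reductase, read 9.88, 9.93 and 9.98 with NDA, against 8.92, 9.03 and 8.90 in feed control. Neither gene had an NDA array within the range of feed control. *Gss* rose by 0.92 ± 0.10 (log2, adjusted p = 1.97e-05) and *Gsr* by 0.98 ± 0.12 (adjusted p = 8.10e-05), and their other probe sets read 1.01 ± 0.11 and 1.02 ± 0.10. All 4 genes had NDA arrays wholly above the feed control arrays, as 9.48% of tested genes did.

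*Slc7a11* was low in lung. Its probe set with the highest mean read 4.84, 5.36 and 5.44 with NDA, against 3.51, 3.47 and 3.58 in feed control. These NDA values lay at the 37.5th to 45.6th percentile of their arrays and the feed control values at the 11.7th to 14.7th, so only NDA animals 4 and 5 passed the 40th percentile and the gene failed the filter, which needs 3 arrays. Tested without the filter over 18193 genes, of which 1.03% were called, *Slc7a11* differed by 1.69 ± 0.15 (log2, 3.22-fold, limma adjusted p = 1.63e-06). The other probe set read 5.96, 5.39 and 6.03 with NDA, against 3.11, 3.06 and 3.44 in feed control, a log2 difference of 2.59 ± 0.15. That probe set passed the filter through the 3 NDA arrays alone, and its difference is therefore given as a description. How much of the control signal is background cannot be read from these values, and the fold of *Slc7a11* is correspondingly uncertain.

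**Figure D1:**
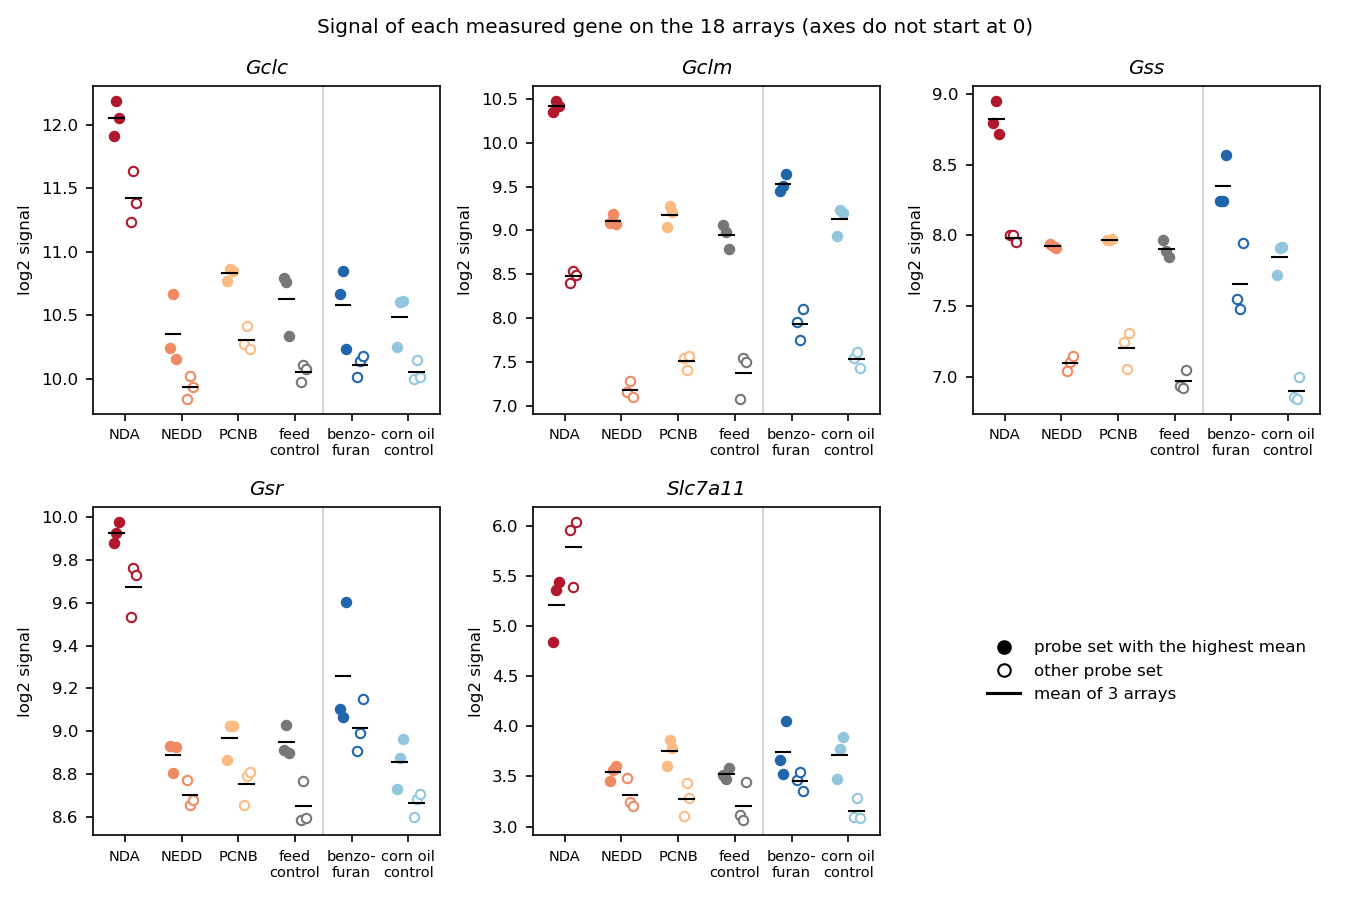
Log2 signal of the 5 measured genes on each of 18 arrays, by group, with filled points for the probe set with the highest mean, open points for the other probe set and lines for means of 3 arrays. The NDA arrays sit above all other arrays for every gene, and benzofuran lies above corn oil control for Gclm, Gss and Gsr.

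Other values moved together with these rises. As a background for the marker counts here, 1.12% of all tested genes were called higher with NDA. Plasma cell markers were called higher with NDA for 3 of 5 genes (*Jchain*, *Ighm* and *Mzb1*). *Sdc1* at 0.36 and *Xbp1* at -0.07 were not called. The mean log2 level of the 5 plasma cell markers was 11.18 to 11.82 with NDA, against 9.12 to 9.81 in feed control. Of 5 measured alveolar macrophage markers 2 were called higher (*Marco*, 1.15, and *Ctsk*, 0.57), and the list median was 0.01. The others were *Siglecf* at -0.69, *Chil3* at -0.11 and *Mrc1* at 0.01, none of them called. Their mean level over 5 markers was 9.03 to 9.32 with NDA, against 8.74 to 9.16 in feed control. Among 5 club cell markers only *Upk3a* was called higher (1.40), and the list median was -0.07. *Aldh1a1* was at 0.31, *Scgb1a1* at -0.15, *Scgb3a2* at -0.07 and *Cyp2f2* at -0.21. The mean level of the club markers was 12.33 to 12.44 with NDA, against 12.09 to 12.16 in feed control. Of the 5 measured alveolar type 2 markers 0 were called. The part of these cells in the glutathione result was not tested. With the actin 3' minus 5' signal as a covariate, the NDA differences were 1.13 for *Gclc*, 1.49 for *Gclm*, 1.02 for *Gss* and 1.14 for *Gsr* (log2), all still called.

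NEDD shares the naphthalene ring system and the feed dose with NDA and carries an ethylenediamine chain on naphthalene, whereas NDA carries an amino group on each ring. It gave 0 called members of 4 tested, at an unadjusted p under 0.05 also 0, with 0.0223% of all tested genes called. *Gclc* read 10.24, 10.67 and 10.15 with NEDD, against 10.79, 10.76 and 10.33 in feed control, and the groups overlapped. Its difference of -0.28 ± 0.17 had an interval from -0.63 to 0.08 (limma adjusted p = 0.588). *Gclm* read 9.08, 9.18 and 9.08 with NEDD, against 9.06, 8.98 and 8.79 in feed control, a difference of 0.17 ± 0.10 with an interval from -0.05 to 0.39. Its 3 NEDD arrays lay just above the control arrays, as they did for 7.23% of tested genes, and its other probe set had the opposite sign, -0.20 ± 0.12. *Gss* differed by 0.02 ± 0.10 (interval -0.19 to 0.24) and *Gsr* by -0.06 ± 0.12 (interval -0.31 to 0.19). *Slc7a11* read 3.46, 3.57 and 3.61 with NEDD and differed by 0.02 ± 0.15 from feed control (interval -0.30 to 0.35, no filter).

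NDA and NEDD were also compared directly, as both were fed at 2000 ppm. The same ppm in feed is not a match of molar dose or of intake. All 4 tested genes were called higher with NDA than with NEDD, beside 1.88% of tested genes called higher. *Gclc* differed by 1.70 ± 0.17 (log2, 3.25-fold, limma adjusted p = 5.15e-06) and *Gclm* by 1.30 ± 0.10 (2.46-fold, adjusted p = 3.94e-07). *Gss* differed by 0.89 ± 0.10 (1.86-fold, adjusted p = 2.56e-05) and *Gsr* by 1.04 ± 0.12 (2.05-fold, adjusted p = 3.55e-05). *Slc7a11*, without the filter, differed by 1.67 ± 0.15 (adjusted p = 2.24e-06), beside 1.57% of genes called. These contrasts share the NDA arrays with the comparison against feed control and are not independent of it. This was the only pair of related compounds compared, and the p-values were adjusted over all tested genes.

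PCNB, a chlorinated nitrobenzene, gave 0 called members of 4 tested with limma, 1 of them (*Gclm*) at an unadjusted p under 0.05, and 0.0149% of tested genes were called. *Gclm* read 9.04, 9.27 and 9.21 with PCNB, against 9.06, 8.98 and 8.79 in feed control, a difference of 0.23 ± 0.10 with an interval from 0.01 to 0.45 (unadjusted p = 0.0405, adjusted p = 0.9995). *Gclc* read 10.77, 10.87 and 10.85 with PCNB, a difference of 0.20 ± 0.17 (interval -0.16 to 0.55), and its other probe set gave 0.25 ± 0.11 with PCNB arrays wholly above feed control. *Gss* read 7.97 on each of the 3 PCNB arrays and differed by 0.07 ± 0.10, whereas its other probe set gave 0.23 ± 0.11 with PCNB arrays above feed control by a gap of 0.0051. *Gsr* differed by 0.02 ± 0.12. *Slc7a11* read 3.60, 3.86 and 3.79 with PCNB, a difference of 0.23 ± 0.15. Among the chosen probe sets, for it alone the PCNB arrays lay wholly above the feed control arrays, which held for 3.67% of tested genes. At the doses given, the upper interval bounds for *Gclc*, *Gclm*, *Gss* and *Gsr* with NEDD or PCNB all lay below the lower bounds with NDA.

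Benzofuran gave a smaller and uneven picture, in which *Gss* was the member called, 1 of 4 tested, while 1.56% of tested genes were called higher. *Gss* read 8.24, 8.24 and 8.57 in benzofuran animals 6, 8 and 10, against 7.72, 7.91 and 7.91 in corn oil control. The rise was 0.50 ± 0.10 (log2, 1.42-fold, interval 0.29 to 0.71, limma adjusted p = 0.0165), and the other probe set gave 0.76 ± 0.11 (adjusted p = 0.00446), beside 0.709% of probe sets called. The call ended without benzofuran 10 (0.39, adjusted p = 0.058), without corn oil control 22 (0.44, adjusted p = 0.111) and in a fit of these groups alone (adjusted p = 0.463). Without benzofuran 8, 3 members were called, in a fit that also called more of all tested genes (counts in the closing section).

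*Gclm* read 9.45, 9.51 and 9.65 with benzofuran, against 8.94, 9.23 and 9.20 in corn oil control, and the groups did not overlap. Its difference was 0.41 ± 0.10 (1.33-fold, interval 0.19 to 0.63), which missed the threshold (limma adjusted p = 0.055). Over the alternatives run, its adjusted p lay between 0.0161 and 0.507, and 6 of them called it. The calls over all genes also moved between alternatives. *Gsr* read 9.11, 9.07 and 9.60 with benzofuran, against 8.73, 8.88 and 8.97 in corn oil control. It differed by 0.40 ± 0.12 (interval 0.15 to 0.65, adjusted p = 0.0914), and by 0.23 without benzofuran 10, the highest array of the group. Thus 3 of 4 tested members (*Gclm*, *Gss* and *Gsr*) had benzofuran arrays wholly above corn oil control, as 13.1% of tested genes did.

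*Gclc* and *Slc7a11* were not called with benzofuran. *Gclc*, the catalytic subunit, read 10.67, 10.85 and 10.23 with benzofuran, against 10.25, 10.60 and 10.61 in corn oil control, a difference of 0.10 ± 0.17 with an interval from -0.26 to 0.45 (adjusted p = 0.802). Benzofuran animal 10, the highest of its group for *Gclm*, *Gss* and *Gsr*, was the lowest for *Gclc* on this probe set, and without it the difference was 0.27. On the other *Gclc* probe set it was the highest, with readings of 10.01, 10.14 and 10.18 in benzofuran animals 6, 8 and 10, and the difference there was 0.06 ± 0.11. *Slc7a11* read 3.66, 3.52 and 4.05 with benzofuran, against 3.48, 3.78 and 3.89 in corn oil control, a difference of 0.03 ± 0.15 (interval -0.29 to 0.35) and of -0.12 without benzofuran 10. Its other probe set read 3.46, 3.55 and 3.36 with benzofuran, against 3.09, 3.28 and 3.09 in corn oil control, wholly above it, and differed by 0.30 ± 0.15 (adjusted p = 0.343). The *Slc7a11* value with benzofuran thus depended on the probe set, and the 6 arrays of that probe set lay at or below a percentile of 13.1 of their arrays. Among markers, *Tekt4* alone of 6 ciliated cell genes was called higher with benzofuran, beside 1.56% of all tested genes. The mean level of these 6 genes was 8.01 to 8.41 with benzofuran, against 7.47 to 7.83 in corn oil control. Of 4 fibroblast markers, *Col1a2* and *Col3a1* were lower, with a mean level of 9.95 to 10.70 with benzofuran, against 11.00 to 11.15 in corn oil control. The part of these cells in the benzofuran values was not tested.

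**Figure D2:**
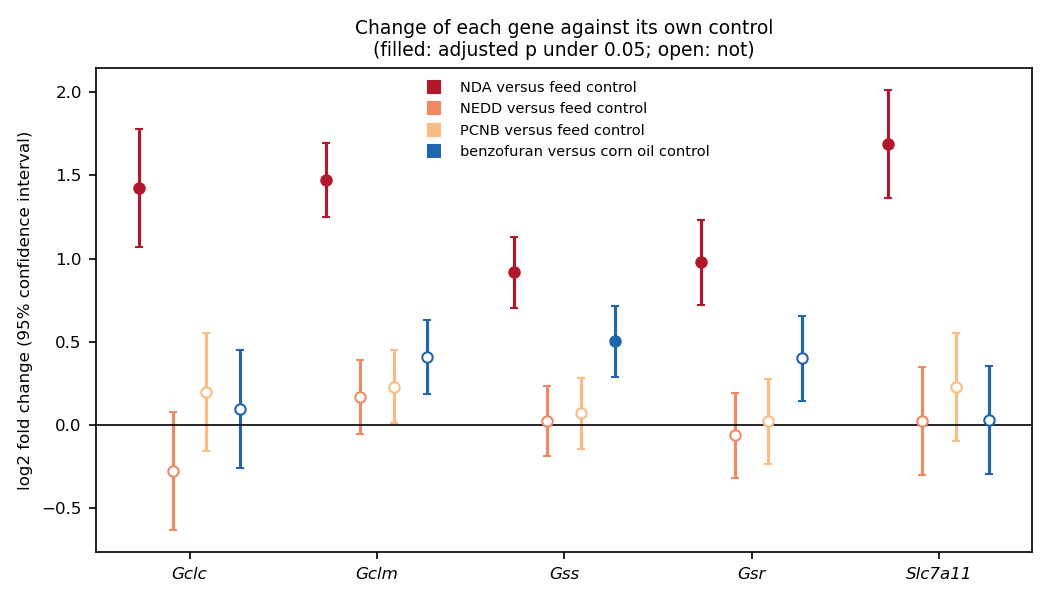
Log2 fold change of each measured gene against its own control (points, with 95% confidence intervals from limma), for NDA, NEDD, PCNB and benzofuran, with filled points where the adjusted p was under 0.05. All 5 NDA points lie between 0.92 and 1.69, and of the other treatments only benzofuran for Gss is filled (0.50).

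The NDA and benzofuran effects, each taken against its own control, differed for the transcripts of both ligase subunits and of *Slc7a11*. The NDA effect exceeded the benzofuran effect by 1.33 ± 0.24 for *Gclc* (log2, limma adjusted p = 0.0161) and by 1.06 ± 0.15 for *Gclm* (adjusted p = 0.00181). These were 2 of 4 tested members, beside 0.29% of tested genes called in that contrast. The *Gclc* call ended under 5 of 22 alternatives. These were the fits without corn oil control 24, corn oil control 25, feed control 29 or NDA 5 (adjusted p 0.054 to 0.058), and that of only the groups compared. With its other probe set the *Gclm* difference was 0.70 ± 0.17 (adjusted p = 0.209), beside 0.192% of probe sets called. *Slc7a11*, without the filter, differed by 1.66 ± 0.22 (adjusted p = 9.40e-04), beside 0.236% of genes called. *Gss* had a difference of 0.42 ± 0.14 (interval 0.12 to 0.72, adjusted p = 0.392) and *Gsr* of 0.58 ± 0.17 (interval 0.22 to 0.94, adjusted p = 0.300). Both values missed the threshold, which does not show that the treatments acted alike on them. Route, vehicle and dosing days per week differed between NDA and benzofuran, and each dose was given on its own scale, so the compounds were not at matched doses.

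The vehicle itself gave 0 called members of 4 tested when corn oil control was set against feed control, and 0 of all 13434 genes (0%) were called by limma, with 271 at an unadjusted p under 0.05. The member differences were -0.14 ± 0.17 for *Gclc*, 0.18 ± 0.10 for *Gclm*, -0.05 ± 0.10 for *Gss*, -0.09 ± 0.12 for *Gsr* and 0.19 ± 0.15 for *Slc7a11*, and 0 of these 5 had an unadjusted p under 0.05. Dosing days per week differed with the route in this contrast.

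Across the 6 groups the order of levels was alike at its top and differed below. NDA had the highest mean for all 5 genes, with arrays apart from the next group. Benzofuran came next for *Gclm*, *Gss* and *Gsr*, also with arrays apart from the group below it. For *Gclc* the next was PCNB at 10.83 ± 0.05 (SD, n = 3), then feed control at 10.63 ± 0.26, benzofuran at 10.58 ± 0.32, corn oil control at 10.49 ± 0.20 and NEDD at 10.35 ± 0.28. None of these neighbours of *Gclc* below NDA had ranges apart. *Slc7a11* averaged 5.21 ± 0.32 with NDA (SD, n = 3), and the other groups overlapped in sequence between 3.75 ± 0.13 with PCNB and 3.52 ± 0.06 in feed control. How many of all tested genes had groups apart in these orders was not counted. Benzofuran and PCNB, the group below it for *Gclm*, *Gss* and *Gsr*, also differed in route and vehicle. Levels of different genes come from different probes and are not compared.

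The tested genes whose pattern over the 18 arrays was most like that of each member were found by the root mean square difference of centred log2 signals. *Slc7a11* failed the filter, so it was not among the genes searched. Nearest to *Gclm* were *Txnrd1* (0.15), *Entpd5* (0.16), *Upk3a* (0.172), *Gsr* (0.175) and *Gss* (0.184), where the median over tested genes was 0.531. *Txnrd1*, which encodes the cytosolic thioredoxin reductase, was also the nearest to *Gclc* (0.272) and to *Slc7a11* (0.22). For *Gclc* the others were *Gclm* (0.291), *Cdhr1* (0.297), *Parm1* (0.30) and *Upk3a* (0.31), against a median of 0.634. *Slc7a11*, outside the search, lay nearer to *Gclc* (0.288) than *Gclm* did. For *Slc7a11* the others were *Gclm* (0.223), *Upk3a* (0.23), *Cdhr1* (0.231) and *Srxn1* (0.234), against a median of 0.636. *Gss* and *Gsr* lay nearer to each other, at 0.102, than either lay to *Gclc*. Beside *Gsr*, the nearest to *Gss* were *Ephx1* (0.0949), *Mboat1* (0.126), *Pgd* (0.136) and *Gstp1* (0.14), with a median of 0.391. For *Gsr* the others were *Entpd5* (0.144), *Eaf2* (0.146), *Cdhr1* (0.159) and *Gch1* (0.163), with a median of 0.423. *Upk3a* was among the nearest 5 of *Gclc*, *Gclm* and *Slc7a11*, and *Cdhr1* among those of *Gclc*, *Gsr* and *Slc7a11*. The signals were centred but not scaled, so these likenesses reflect the size of a change as well as its pattern. They are descriptions over arrays in which 3 NDA arrays carry most of the spread.

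Other genes of the pathway were read from lists, beside a background of 1.12% of tested genes called higher with NDA and 1.56% with benzofuran. Of 13 genes of cysteine supply and use, 12 were measured and 9 tested, and 2 rose with NDA (1.12% of all tested genes did), with a list median of 0.08 beside -0.02 over all tested genes. They were *Slc3a2* (0.47 ± 0.10, limma adjusted p = 0.0179), the heavy chain that carries xCT to the membrane, and *Slc1a4* (0.42 ± 0.09, adjusted p = 0.0272), a carrier of neutral amino acids. The transsulfuration enzymes *Cbs* and *Cth* had values of 0.10 ± 0.17 and 0.16 ± 0.22 and were not called. With benzofuran 0 of the 9 were called, with a median of 0.16 beside 0.05 over all tested genes.

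Of 13 genes of glutathione breakdown and recapture, 11 were tested and 0 were called with NDA (median 0.02) or benzofuran (median 0.13). The relatives of *Ggt1* were among them, with NDA values of 0.09 ± 0.15 for *Ggt5*, 0.29 ± 0.15 for *Ggt6* and -0.01 ± 0.13 for *Ggt7*. *Chac1*, which degrades glutathione inside the cell, had a value of -0.04 ± 0.19. Among 12 genes of glutathione transport and other use, 11 were tested, and *Abcc1*, an exporter of glutathione conjugates, was the member called with NDA (0.50 ± 0.12, adjusted p = 0.0338, list median 0.14). With benzofuran 0 of these 11 were called (median 0.23).

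Targets of ATF4 were read because *Slc7a11* is known as one of them. With NDA 2 of 12 tested genes rose, beside 1.12% of all tested genes, namely *Trib3* (0.94 ± 0.13, adjusted p = 3.81e-04), a pseudokinase, and *Psat1* (0.76 ± 0.15, adjusted p = 0.00881), an enzyme of serine synthesis, with a list median of 0.28. *Asns* (0.23 ± 0.13) and *Ddit3* (-0.13 ± 0.11) were not called, and neither was *Chac1*, which this list shares with the breakdown list. With benzofuran 0 of the 12 were called (median 0.14). Of 14 tested NRF2 targets outside the pathway's members, 13 rose with NDA (median 1.38), beside 1.12% of all tested genes, and 7 with benzofuran (median 0.48), beside 1.56%. *Abcc1*, called with NDA, is in this list and in the transport list. The NDA values of this list were led, in order of p, by *Nqo1* (3.10), *Txnrd1* (1.54), *Gpx2* (2.45), *Gsta2* (1.99), *Cbr3* (2.09) and *Srxn1* (1.62). The benzofuran values were led by *Nqo1* (2.15), *Gpx2* (1.68), *Gsta2* (1.39), *Blvrb* (0.82), *Cbr3* (1.00) and *Pgd* (0.48). NEDD and PCNB gave 0 calls in every one of these 5 lists with limma. The ATF4 list median was 0.22 with NEDD (10 of 12 differences positive) and 0.09 with PCNB (9 of 12). The NRF2 list median was 0.01 with NEDD (7 of 14 positive) and 0.24 with PCNB (13 of 14). Over all tested genes, 45.8% of differences were positive with NEDD and 43.6% with PCNB.

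**Figure D3:**
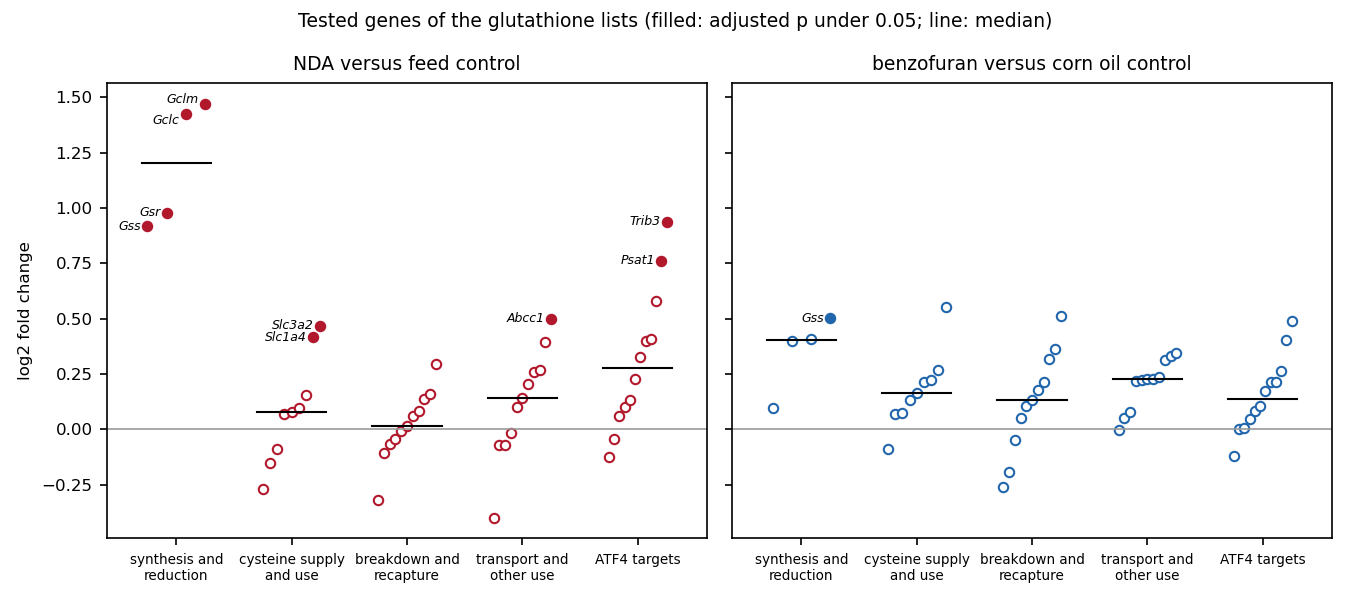
Log2 fold changes of the tested genes, grouped as glutathione synthesis and reduction, cysteine supply and use, breakdown and recapture, transport and other use, and ATF4 targets, with NDA against feed control on the left and benzofuran against corn oil control on the right. Filled points were called, lines are medians, and the 4 synthesis and reduction genes lie at 0.92 to 1.47 with NDA, above every gene of the breakdown list (highest 0.29), while the ATF4 target Trib3 (0.94) lies above Gss (0.92).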

How the data were processed

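The authors deposited 1 log2 signal per probe set and array, 45101 probe sets on 18 arrays. The base of the logarithm was judged from the range of 2.48 to 14.78, and neither summary nor normalization method is given in the sources used here. Per the labels, 10 µg of total RNA was labelled with biotin per array, from 1 animal each, so replicates are animals. Probe sets with a single symbol (34945) named genes, 34741 of them matched to RefSeq genes of GRCm38.p6, and coordinates are RefSeq's, not the array's. The filter kept genes whose signal exceeded the 40th percentile of the array on 3 or more arrays. Means of 6 groups were fitted with limma 3.58.1 in R 4.3.3 (12 residual degrees of freedom, lmFit and eBayes), with two-sided p-values and Benjamini-Hochberg adjustment over all tested genes, separately for 7 comparisons. The fit was tested on simulated data. Signal over background is unknown without detection calls, and 3 arrays a group limit the precision.

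Alternatives changed the filter, scaling, choice of probe set, array weights, variance model, actin covariate, arrays included and samples fitted. Every member is named. Of the pathway lists, genes called with any treatment are named, up to 6 a list and comparison by smallest p, with 5 genes per member for likeness. *Ggt5*, *Ggt6*, *Ggt7*, *Chac1*, *Cbs*, *Cth*, *Asns* and *Ddit3* were named beside the rule after their values were seen. The members and lists were chosen with earlier results of these data known.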

Additional observations from a re-analysis of the deposited data

Results flagged for a closer look

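Effects that differed between treatments were found for every measured gene. NDA and NEDD were fed at the same ppm and had the same controls. They differed in limma by 1.70 for *Gclc*, 1.30 for *Gclm*, 0.89 for *Gss*, 1.04 for *Gsr* and 1.67 for *Slc7a11* (log2, NDA higher). The effect of NDA exceeded that of benzofuran, each against its own control, by 1.33 for *Gclc*, 1.06 for *Gclm* and 1.66 for *Slc7a11* (log2, limma interaction contrasts).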

How the results depend on the processing

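Calls of *Gclc*, *Gclm*, *Gss* and *Gsr* with NDA, against feed control and against NEDD, held under all alternatives run, 4 of 4 each. No member was called with NEDD, PCNB or corn oil under any. The alternatives for *Slc7a11* without the filter were chosen after seeing the data, and its NDA calls held in all of them. The average of its probe sets, among them, draws in part on the probe set that passed the filter through the NDA arrays alone. That probe set by itself is a description and not a check of the call.

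For benzofuran, 1 member was called, against 2 with arrays centred on their medians, with probe sets averaged or with trend and robust variances, 3 with array weights or the actin covariate, and 0 when only the groups compared were fitted. Leaving out each animal gave 0 to 3 (0 without corn oil control 22 or benzofuran 10, 3 without benzofuran 8). Benzofuran calls over all genes, given below, rose with array weights and without benzofuran 8. They fell without corn oil control 22 or benzofuran 10. For the NDA effect minus the benzofuran effect, 2 members were called, against 4 with array weights and 1 when only the groups compared were fitted. Leaving out each animal gave 1 to 3 (3 without benzofuran 10). The cause was not tested.

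Signs that reversed belonged to differences that were never called. With NEDD they were *Gclm* at -0.014 (averaged probe sets) and -0.20 (other probe set), *Gss* at -0.0045 to 0.0587 without 1 animal, *Gsr* at 0.0512 (actin covariate) and 0.0529 (other probe set), and *Slc7a11* at -0.0345 (quantile scaling), -0.0042 (array weights) and -0.0088 to 0.0664 without 1 animal. With PCNB, *Gsr* was at -0.0041 to 0.0755 without 1 animal. With benzofuran, *Gclc* was at -0.0373 to 0.271 without 1 animal, and *Slc7a11* at -0.0201 (array weights), -0.1226 to 0.1414 without 1 animal. With corn oil against feed control, *Gss* was at -0.0851 to 0.0115 without 1 animal, and the other probe sets gave 0.0011 for *Gclc*, 0.0151 for *Gsr* and -0.0516 for *Slc7a11*.

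Calls over all genes moved with the choices. NDA gave 184 calls (120 without feed control 29 to 755 with array weights), and NDA against NEDD gave 285 (168 without NEDD 12 to 1813 with array weights). Benzofuran gave 233, against 5 when only the groups compared were fitted, 37 without corn oil control 22, 67 without benzofuran 10, 113 without corn oil control 24, 1054 without benzofuran 8 and 1149 with array weights. The NDA effect minus the benzofuran effect gave 39 (21 to 158), NEDD 3 (0 to 521), PCNB 2 (0 to 3) and corn oil 0 (0 to 1). No paired analysis was possible because the animal numbers are not shared between groups.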
